A study of Mus musculus with 2 samples.

Results

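The Notch pathway was described in the embryonic cortex through 10 of its genes, the receptors *Notch1*, *Notch2* and *Notch3*, the ligands *Dll1*, *Dll3* and *Jag1*, the fringe glycosyltransferase *Mfng* and the transcriptional targets *Hes1*, *Hes5* and *Hey1*. They were chosen by name from the 32285 genes of the count matrices, and all 10 were found in both matrices and passed the filter on low counts. The samples were cortices of 2 mouse embryos at E16.5, called embryo 4 and embryo 5, each measured in 1 single-cell RNA-seq library (10x Genomics 3′ v3.1). Both carry the genotype label WT, and their titles add the name EoMltt3, a line that is not explained in the labels. Whether these controls carry a Cre transgene or a floxed allele is not stated, the label of the tissue is brain hemispheres, and no other genotype or treatment was compared. Embryo 4 gave 12825 barcodes with 124318613 UMIs (unique molecular identifiers, tags that mark single captured transcripts) and embryo 5 gave 12289 barcodes with 117679925 UMIs. The libraries shared 46 barcodes, and the profiles of a shared barcode correlated at a median of 0.566 between libraries against 0.559 when the same barcodes were paired with one another's profiles.

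Notch signalling passes between touching cells. A ligand of the Delta or Jagged family on one cell binds a Notch receptor on its neighbour, the receptor is cut, and its intracellular part joins the DNA-binding protein RBPJ in the nucleus to switch on genes of the Hes and Hey families. Hes proteins repress proneural genes such as *Neurog2*, which in turn activate Delta ligands, and in the cortex this circuit is known for keeping radial glia undifferentiated while their neighbours become neurons. Fringe enzymes add sugars to Notch and alter which ligands it answers to.

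The cells were grouped into classes by clustering without the pathway genes and by marker genes, and UMIs were summed per class and embryo and scaled to the total of each sum (CPM, the usual unit for such sums). Cells resembling radial glia (RGC-like, 1321 in embryo 4 and 1436 in embryo 5) are the stem cells of the cortex, intermediate progenitors (IPC-like, 828 and 889) are their *Eomes*-expressing daughters, and immature excitatory neuron-like cells (2235 and 2365) are the neurons that leave the progenitor zone. The summed level of the 10 RGC markers was 8728 and 8582 CPM in RGC-like, 1646 and 1614 in IPC-like and 472 and 409 in immature neuron-like cells. The 7 IPC markers summed to 279 and 212, 2468 and 2390, and 467 and 455 CPM in the same order. The 7 markers of immature neurons summed to 135 and 142, 1852 and 1729, and 5435 and 5704 CPM. The cycling-led clusters held 34.3% of RGC-like and 18.8% of IPC-like cells and none of their 10 leading genes was a class marker. The same held for a further IPC-like cluster of 55 cells and a *Tfap2d*-led cluster with 16.1% of the immature neuron-like cells. The names of all of these rest on the mean level and detection of the class markers and a margin over the next class.

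The bases before 3 of the member genes are shown because their levels along the lineage were opposite, with *Hes5* in radial glia and *Dll1* and *Dll3* in intermediate progenitors. Each line gives the 250 bases before a RefSeq transcript start in GRCm38.p6, 5′ to 3′ on the strand of the gene. Capitals in *Hes5* (chr4:154960673-154960922, plus strand, lying behind an earlier annotated start of the gene) mark GTGGGAA or its complement TTCCCAC, the letters of an RBPJ site. Capitals in *Dll1* (chr17:15376933-15377182, minus strand) and *Dll3* (chr7:28301786-28302035, minus strand) mark CAGCTG, an E-box and its own complement, of the kind bound by basic helix-loop-helix proteins.
Hes5: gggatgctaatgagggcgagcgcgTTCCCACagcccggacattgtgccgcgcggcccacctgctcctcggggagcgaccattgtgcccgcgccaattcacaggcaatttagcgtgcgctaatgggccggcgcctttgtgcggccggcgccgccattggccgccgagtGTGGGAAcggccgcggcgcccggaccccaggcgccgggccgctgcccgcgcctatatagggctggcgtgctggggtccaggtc
Dll1: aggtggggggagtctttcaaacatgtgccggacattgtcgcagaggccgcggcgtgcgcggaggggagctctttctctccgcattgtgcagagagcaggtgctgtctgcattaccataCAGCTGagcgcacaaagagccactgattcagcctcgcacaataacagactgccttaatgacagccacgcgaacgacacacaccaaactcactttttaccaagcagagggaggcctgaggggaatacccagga
Dll3: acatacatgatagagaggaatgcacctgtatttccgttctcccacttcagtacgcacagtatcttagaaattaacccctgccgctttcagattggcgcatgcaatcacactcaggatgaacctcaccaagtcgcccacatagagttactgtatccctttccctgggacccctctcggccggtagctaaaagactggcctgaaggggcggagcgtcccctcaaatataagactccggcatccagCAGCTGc
The RBPJ letters began 226 and 83 bases before the *Hes5* start, in opposite orientations, and the E-box began 132 bases before the *Dll1* start shown and 7 bases before the *Dll3* start. RefSeq gives a second *Dll1* start, whose window (chr17:15375824-15376073) held none of the motifs searched. Windows were matched for 7 of the 10 genes (8 windows). GTGGGAA was found in the *Hes5* window alone, CAGCTG also in that of *Jag1*, and the other E-box searched, CAGATG, in none of the 8. Over all 32851 windows of the mouse, on both strands, 5.42% held GTGGGAA, 13.0% CAGCTG and 14.4% CAGATG. These motifs do not overlap one another and were chosen with the levels known.

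From radial glia to intermediate progenitors all 3 receptors and all 3 targets fell, and the Delta ligands and *Mfng* rose. In this comparison (edgeR's quasi-likelihood test on the sums of both embryos, Benjamini-Hochberg adjusted over 15781 genes) 3 members were higher and 7 lower in IPC-like cells. Of all genes tested 24.7% were called higher and 24.4% lower, with a median log2 fold change of 0.01 against −1.57 over the 10 members. The sums of a class come from 2 embryos, and members measured in the same cells are not independent of one another.

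**Figure D1:**
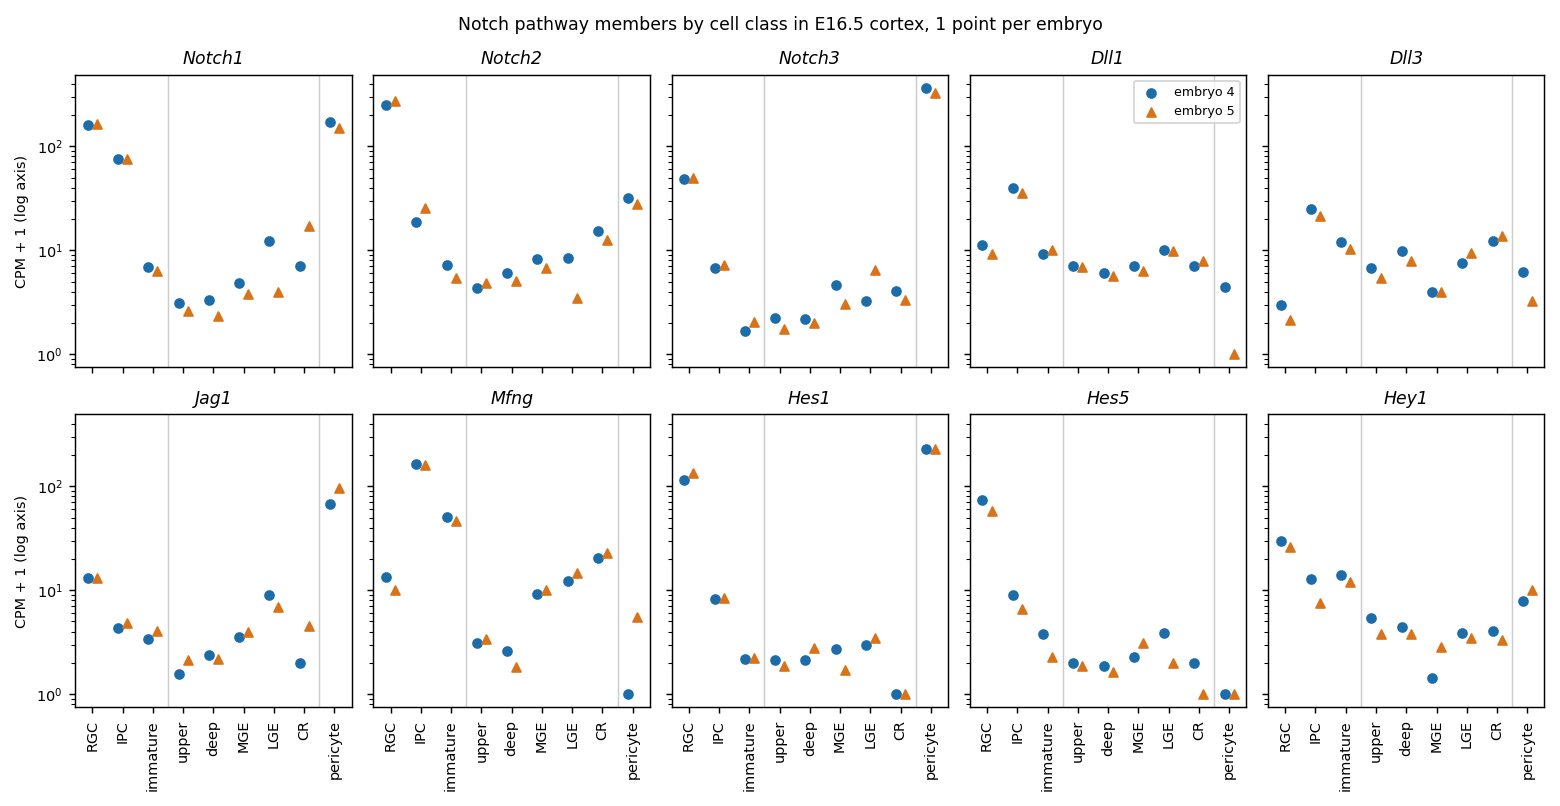
Level of each member in 9 cell classes, as CPM + 1 on a log axis, with 1 point per embryo (circle, embryo 4; triangle, embryo 5). Receptors and *Hes* targets were high in RGC-like cells, whereas *Dll1*, *Dll3* and *Mfng* peaked in IPC-like cells, and *Notch3* was highest in pericyte-like cells at 365 and 324 CPM.

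Among the receptors, *Notch1* (chr2:26457902-26503822) stood at 161 CPM in embryo 4 and 162 CPM in embryo 5 in RGC-like cells, at 74.5 and 74.2 CPM in IPC-like cells and at 5.90 and 5.30 CPM in immature neuron-like cells. The embryos lay close together in each class and no class overlapped another. Its log2 fold change was −1.04 ± 0.07 (SE, adjusted p = 4.0e-06, edgeR) from RGC-like to IPC-like cells and −3.61 ± 0.09 (adjusted p = 2.1e-08) from IPC-like to immature neuron-like cells. *Notch2* (chr3:98013538-98150367) fell mostly at the first step, from 251 and 271 CPM to 17.6 and 24.6 CPM, and then to 6.29 and 4.36 CPM. The changes were −3.55 ± 0.16 (adjusted p = 2.1e-07) and −1.85 ± 0.20 (adjusted p = 5.0e-05). *Notch3* (chr17:32120820-32166896) went from 47.9 and 48.8 CPM to 5.78 and 6.15 CPM and to 0.678 and 1.05 CPM, with changes of −2.93 ± 0.14 (adjusted p = 2.8e-07) and −2.67 ± 0.23 (adjusted p = 1.1e-05). Intermediate progenitors thus carried a lower level of each receptor than radial glia, and *Notch1* had the smallest fitted fall of the 3 at the first step and the largest at the second, an order whose differences between genes were not tested.

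*Notch3* is known from mural cells of vessels, and pericyte markers were read in the same sums. Their summed level was 11.5 and 9.09 CPM in RGC-like cells against 9516 and 7835 CPM in pericyte-like cells, where *Notch3* stood at 365 and 324 CPM. All 6 markers were detected in RGC-like cells. Their part in the *Notch3* level of RGC-like cells was not tested.

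Along the lineage the Delta ligands were highest in intermediate progenitors. *Dll1* (chr17:15367354-15376932), the main activating Delta ligand of the cortex, rose from 10.2 and 8.15 CPM in RGC-like cells to 38.4 and 34.8 CPM in IPC-like cells and then fell to 8.13 and 9.13 CPM in immature neuron-like cells. Its log2 fold changes were 2.08 ± 0.13 (adjusted p = 2.3e-06, edgeR) and −1.97 ± 0.13 (adjusted p = 2.2e-06), so that immature neurons overlapped radial glia. *Dll3* (chr7:28293555-28301785), a divergent Delta protein known for acting inside the cell rather than as an activating ligand, was nearly missing from radial glia, with 2.0 and 1.14 CPM from 30 and 17 UMIs. It stood at 23.7 and 20.4 CPM in IPC-like and 11 and 9.29 CPM in immature neuron-like cells, a rise of 3.90 ± 0.23 (adjusted p = 1.2e-06) followed by a fall of 1.0 ± 0.17 on the log2 scale (adjusted p = 0.00105). *Jag1* (chr2:137081451-137116520), the Jagged ligand of this group, followed the receptors. It was at 12.1 and 12.2 CPM in RGC-like, 3.30 and 3.79 CPM in IPC-like and 2.42 and 3.04 CPM in immature neuron-like cells. The first step gave −1.69 ± 0.20 (adjusted p = 0.000113) and the second −0.26 ± 0.23, which did not pass the test (adjusted p = 0.379).

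*Mfng* (manic fringe, chr15:78755882-78773516) rose at the first step like the Delta ligands. It went from 12.3 and 9.02 CPM in RGC-like cells to 164 and 158 CPM in IPC-like cells and remained at 49.8 and 45.5 CPM in immature neuron-like cells. The embryos differed by less than the classes at each step. The log2 fold changes were 4.0 ± 0.13 (adjusted p = 3.0e-08, edgeR) and −1.64 ± 0.11 (adjusted p = 1.8e-06). Its relative *Lfng* (lunatic fringe), which was not one of the 10, moved the other way. *Lfng* fell from 22.9 and 19.0 CPM to 1.18 and 0.654 CPM at the first step, by 4.39 ± 0.27 on the log2 scale (adjusted p = 1.7e-06).

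All 3 targets fell from radial glia to intermediate progenitors. *Hes1* (chr16:30065357-30067796) stood at 114 and 133 CPM in RGC-like cells and fell to 7.20 and 7.46 CPM in IPC-like and 1.16 and 1.21 CPM in immature neuron-like cells. These were falls of 3.99 ± 0.13 (adjusted p = 3.1e-08, edgeR) and 2.5 ± 0.22 on the log2 scale (adjusted p = 1.2e-05). *Hes5* (chr4:154960626-154962372), whose upstream bases with the RBPJ letters are printed above, was at 73.5 and 57.2 CPM, then 7.91 and 5.63 CPM, then 2.76 and 1.26 CPM. Its embryos differed more than those of *Hes1*, embryo 4 being higher in each class. The changes were −3.17 ± 0.24 (adjusted p = 5.7e-06) and −1.62 ± 0.35 (adjusted p = 0.00397). *Hey1* (chr3:8663359-8667038) departed from both *Hes* genes after the first step. It was at 28.9 and 25.3 CPM in RGC-like and 11.9 and 6.54 CPM in IPC-like cells, a change of −1.45 ± 0.21 (adjusted p = 0.000457). In immature neuron-like cells it stood at 13.1 and 11 CPM, which overlapped the IPC-like range, and the change of 0.49 ± 0.22 did not pass the test (adjusted p = 0.101). With the embryo as a block in the fit it did (adjusted p = 0.0247), and with classes gated on single cells its sign turned (−0.049).

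**Figure D2:**
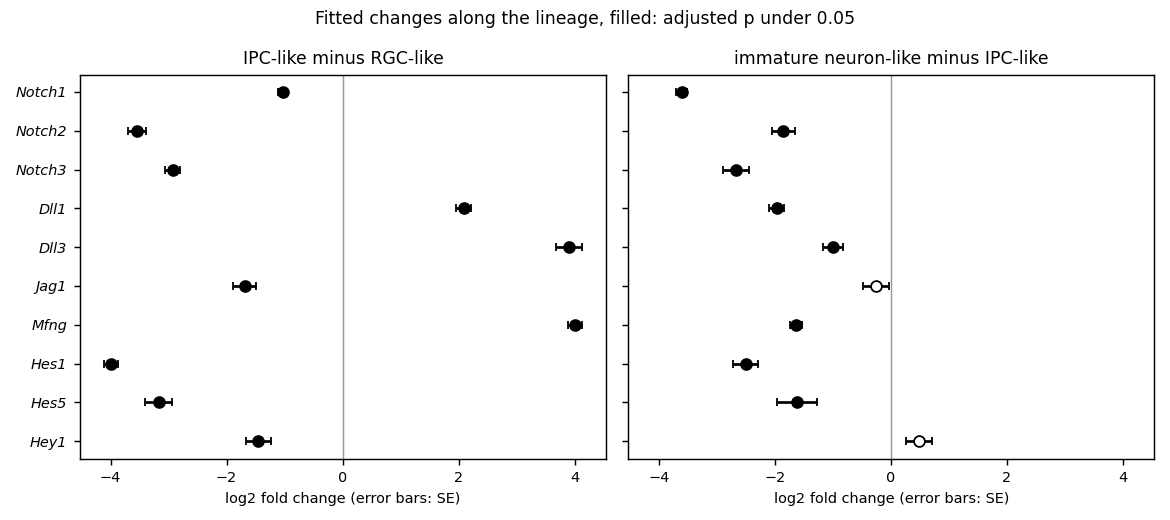
Fitted log2 fold change of each member at both steps of the lineage, with the standard error as bar and filled points for an adjusted p under 0.05. At the first step *Dll1*, *Dll3* and *Mfng* lie to the right of 0 and the other members to the left, and at the second *Jag1* and *Hey1* are the members that did not pass.

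From intermediate progenitors to immature neurons 8 members were lower and 0 higher (0 with DESeq2 and before adjustment, 1 with the embryo as a block), where 24.4% of all genes were called lower and 25.3% higher. The median change was −1.74 over the members and 0.01 over all genes. Leaving out the cycling-led clusters, but not the IPC-like cluster of 55 cells, changed none of the calls of either step. The 10 cell cycle markers summed to 2427 and 2671 CPM in RGC-like, 1206 and 1360 in IPC-like and 113 and 92.4 in immature neuron-like cells. In summed classes, fewer expressing cells and fewer transcripts per cell cannot be told apart. Shares of cells with a UMI were also taken, but at a fixed depth they follow the mean level as well and do not separate the 2.

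Each cell was thinned to 3000 UMIs at random and the share with at least 1 UMI of a gene was compared with deep-layer neuron-like cells, older neurons taken as background for the receptors and targets. Of the 3 clusters of this class 2 (534 and 604, and 227 and 259 cells) lacked a class marker among their leading genes. Of RGC-like cells, 27.0% in embryo 4 (exact binomial, 95%, 24.6 to 29.6) and 31.0% in embryo 5 (28.5 to 33.5) had a *Hes1* UMI. In IPC-like cells the shares were 1.87% and 1.29%, and in deep-layer neuron-like cells 0.561% and 0.662%. The *Hes1* shares of immature neuron-like cells, 0.414% and 0.522%, were below those of the deep-layer cells and are read as background. *Hes5* was found in 18.3% and 14.4% of RGC-like and 1.99% and 1.29% of IPC-like cells, against 0.351% and 0.331% of deep-layer cells. *Mfng* was found in 38.4% and 38.8% of IPC-like, 13.4% and 12.7% of immature neuron-like and 3.23% and 2.86% of RGC-like cells, against 0.351% and 0.132% of deep-layer cells. *Dll1* was found in 11.8% and 9.85% of IPC-like and 2.26% and 2.42% of RGC-like cells, against 0.842% and 1.19% of deep-layer cells. It was also found in 2.81% and 2.31% of immature neuron-like and 1.95% and 1.66% of MGE interneuron-like cells. The RGC-like share is not set apart from these. *Notch1* was found in 39.0% and 37.8% of RGC-like, 19.0% and 18.3% of IPC-like and 1.70% and 1.52% of immature neuron-like cells, against 0.632% and 0.530% of deep-layer cells. *Dll3* was found in 2.74% and 1.66% of deep-layer cells and in 2.76% and 3.0% of immature neuron-like cells. These shares were alike in embryo 4. In embryo 5 the deep-layer share was lower, with overlapping intervals (1.07 to 2.43 against 2.34 to 3.78). No level of *Dll3* particular to the younger neurons is read from them. Intervals cover counting error only. Before thinning the median depth was 11027 and 9926 UMIs in RGC-like, 9944 and 8213 in IPC-like, 9105 and 7784 in immature neuron-like and 12990 and 11000 in deep-layer neuron-like cells.

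**Figure D3:**
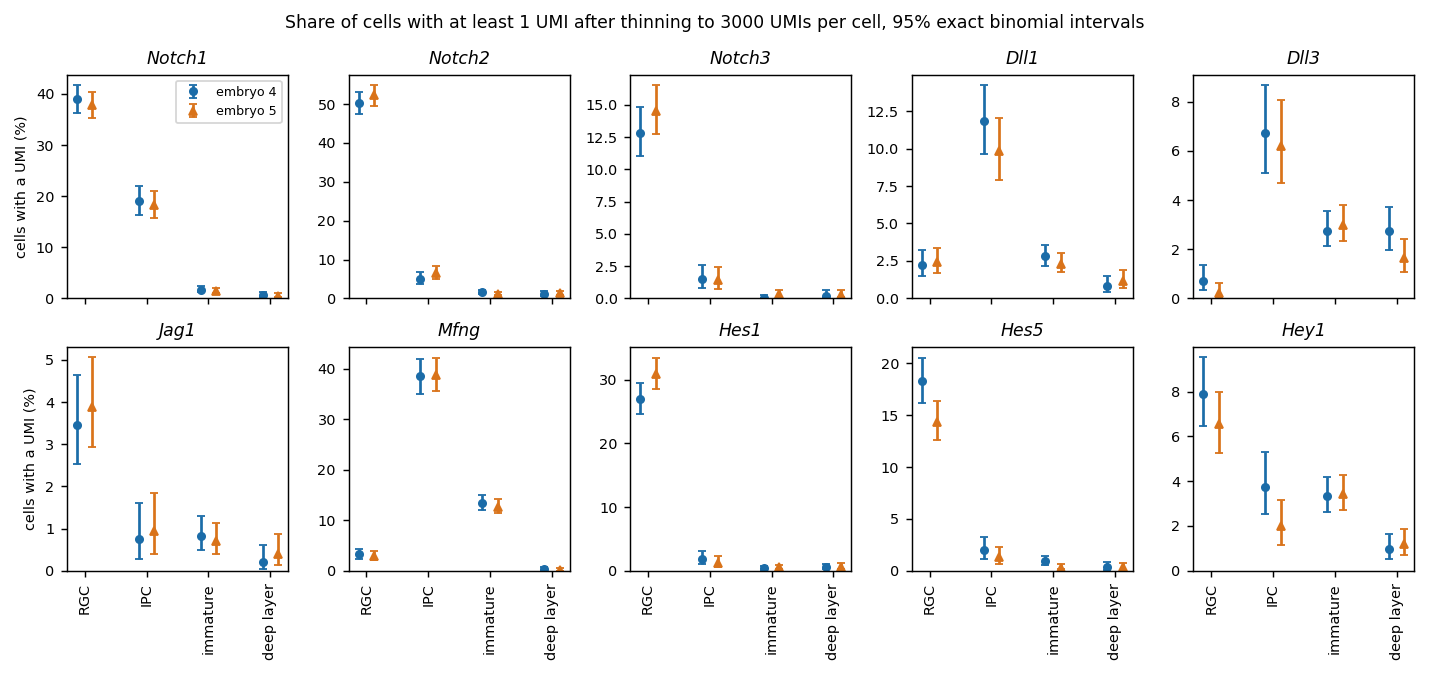
Share of cells with at least 1 UMI, in percent, after thinning to 3000 UMIs per cell, by class and embryo, with 95% exact binomial intervals. *Mfng* is found in 38.4% and 38.8% of IPC-like cells, and *Hes1* in 27.0% and 31.0% of RGC-like cells.

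Whether ligand and target shared cells was asked for *Dll1* and *Hes5*, since a Delta-high cell is thought to receive little Notch signal. Among thinned RGC-like cells of embryo 4, *Hes5* was detected in 21.4% of the 28 cells with *Dll1* (interval 8.30 to 41.0) and in 18.2% of the 1212 without it (16.1 to 20.5). In embryo 5 the shares were 3.03% of 33 cells (0.0767 to 15.8) and 14.7% of 1329 cells (12.8 to 16.7). The embryos pointed in opposite directions and the intervals overlapped in each, so a difference was not detectable at this depth. Without thinning *Hes5* was found in 40.2% of cells with *Dll1* and 40.6% without it in embryo 4, and in 30.3% and 36.2% in embryo 5. *Hes1* was found in 21.4% and 24.2% of thinned RGC-like cells with *Dll1* and in 27.1% and 31.2% of those without it, lower in both embryos, again with overlapping intervals (8.30 to 41.0 against 24.7 to 29.7, and 11.1 to 42.3 against 28.7 to 33.7). In IPC-like cells of embryo 4 the shares were 3.16% of 95 and 1.83% of 709 cells. In embryo 5, 0 of 84 cells with *Dll1* had *Hes5*, where the interval reaches 4.30%, against 1.43% of 769 cells. Without thinning *Hes5* was found in 8.47% of 236 IPC-like cells with *Dll1* and 6.93% of 592 without it in embryo 4. In embryo 5 these unthinned shares were 6.16% of 211 and 3.1% of 678 cells. They were higher with *Dll1* in both embryos, with overlapping intervals and without depth held equal. No exclusion of *Hes5* from IPC-like cells with *Dll1* is read from these shares.

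Within radial glia, *Dll1*, *Jag1* and *Mfng* were lower in the cycling-led cluster. *Mfng* was at 4.63 and 4.74 CPM there against 18.2 and 12.9 CPM in the other RGC-like cells, a difference of −1.63 ± 0.20 (log2, adjusted p = 0.000177, edgeR over 14101 genes). *Dll1* was at 6.32 and 3.91 CPM against 13.2 and 12 CPM (−1.21 ± 0.23, adjusted p = 0.00481). *Jag1* was at 9.41 and 7.82 CPM against 14.2 and 16.3 CPM (−0.72 ± 0.20, adjusted p = 0.0325), a call lost with DESeq2 (adjusted p = 0.316). In each of the 3 genes the groups did not overlap, which also held for *Notch2*, *Notch3*, *Dll3*, *Hes1* and *Hey1*, not called in this fit. The absence of overlap therefore does not set the called genes apart, and its share over all genes was not taken. *Dll3*, at 1.23 and 0.977 CPM against 2.58 and 1.28 CPM, did not pass (−0.71 ± 0.44, adjusted p = 0.323). Of all genes 4.58% were called lower and 9.24% higher, and no member was called higher. DESeq2 called 0 higher as well, and before adjustment 2 members, *Hes1* and *Notch2*, were past 0.05 in edgeR. With the embryo as a block the counts over all genes rose from 1303 higher and 646 lower to 2051 and 1285, and *Hes1* (0.34, adjusted p = 0.00151) and *Notch2* (0.26, adjusted p = 0.00658) were then called higher. *Hes1* stood at 126 and 144 CPM in the cycling-led cluster and 105 and 123 CPM in the other RGC-like cells.

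Among intermediate progenitors the Delta ligands and *Mfng* were again lower in the cycling-led cluster. The other IPC-like cells include the cluster of 55 cells led by *Cenpa* and *Ube2c*, so the split does not part all cycling cells. *Mfng* was at 91.9 and 98.3 CPM against 186 and 180 CPM in the other IPC-like cells (−0.95 ± 0.12, adjusted p = 0.000112). *Dll1* was at 16.8 and 23.7 CPM against 44.9 and 38.9 CPM (−1.06 ± 0.21, adjusted p = 0.00247). *Dll3* was at 14.2 and 9.68 CPM against 26.6 and 24.4 CPM (−1.11 ± 0.26, adjusted p = 0.00716). *Notch2* was the member that was higher, at 31.5 and 35.8 CPM against 13.4 and 20.4 CPM (1.0 ± 0.20, adjusted p = 0.00296). These 4 members did not overlap between the clusters, but neither did *Notch1*, *Jag1* and *Hes1*, which were not called in this fit. Of all genes 17.9% were called lower and 15.8% higher, and the share without overlap was not taken. With the embryo as a block *Hes1* was also called higher (0.70, adjusted p = 0.0441), from 11.7 and 9.20 CPM against 5.84 and 6.81 CPM. *Notch1* was at 68.1 and 65.3 CPM against 76.4 and 77.5 CPM and did not pass (adjusted p = 0.102).

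**Figure D4:**
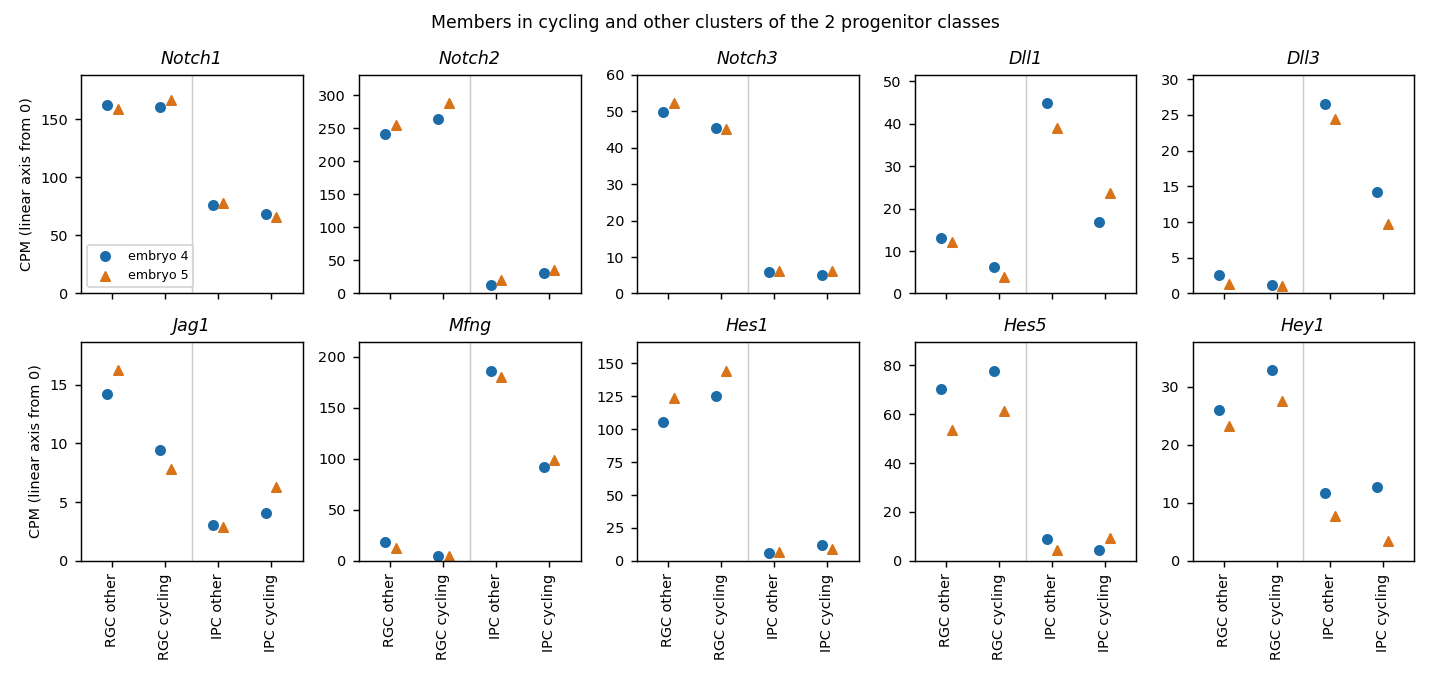
Level of each member (CPM, linear axis from 0) in the cycling-led and the other clusters of RGC-like and IPC-like cells, 1 point per embryo. *Dll1* and *Mfng* lie lower in the cycling-led cluster of both classes, for *Mfng* at 91.9 and 98.3 CPM against 186 and 180 CPM in IPC-like cells.

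The immature neuron-like clusters differed among themselves, which is described without a test. These genes were measured in the clustered cells. The same holds for the class and cycling comparisons above, whose p-values do not account for the clustering. *Mfng* stood at 94.6 and 96.5 CPM in a cluster led by *Cdh8* and *Unc5d* and at 18.3 and 13.8 CPM in one led by *Nrp1*. *Notch1* was at 10.5 and 10.8 CPM in the first and 2.26 and 2.01 CPM in the second, and *Dll3* at 16.9 and 16.5 CPM and at 6.55 and 5.28 CPM. *Hey1* was at 13.2 and 12 CPM and at 15.0 and 12.8 CPM. The *Tfap2d*-led cluster held *Hey1* at 5.41 and 4.73 CPM, *Mfng* at 11.6 and 9.18 CPM, *Dll3* at 7.34 and 3.06 CPM and *Notch1* at 3.48 and 1.11 CPM. A cluster led by *Rmst* and *Neurod1* (364 and 328 cells) scored best for this class but stayed unnamed and outside the comparisons. It held *Hey1* at 22.7 and 25.6 CPM, *Mfng* at 86.4 and 76.5 CPM, *Dll3* at 18.5 and 16.3 CPM and *Notch1* at 18.1 and 8.32 CPM. In the 5 other neuron classes (upper-layer, deep-layer, MGE, LGE-type and Cajal-Retzius) the highest sum of any embryo was 16.3 CPM for *Notch1*, 5.42 CPM for *Notch3*, 2.46 CPM for *Hes1* and 2.84 CPM for *Hes5*. *Mfng* reached 22.1 CPM, in Cajal-Retzius-like cells, and *Dll1* stayed between 4.62 and 9.09 CPM.

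In pericyte-like cells *Notch3*, *Jag1* and *Hes1* were higher than in radial glia and 5 members were lower. In pericyte-like cells (51 and 44), *Notch3* stood at 365 and 324 CPM against 47.9 and 48.8 CPM in RGC-like cells, a difference of 2.86 ± 0.15 (log2, adjusted p = 1.0e-11, edgeR over 16658 genes). *Jag1* was at 66.5 and 95.1 CPM (2.73 ± 0.25, adjusted p = 3.5e-08) and *Hes1* at 229 and 226 CPM (0.90 ± 0.13, adjusted p = 2.7e-05). *Notch1* was at 169 and 149 CPM, around its RGC-like level (0.01 ± 0.19, adjusted p = 0.983). In all 3 members were called higher and 5 lower, where 17.3% of all genes were higher and 19.6% lower. *Notch2* was lower at 30.7 and 27.2 CPM (−3.14 ± 0.26, adjusted p = 1.0e-08) and *Hey1* at 6.82 and 9.05 CPM (−1.77 ± 0.51, adjusted p = 0.0101). *Hes5* had 0 UMIs in the pericyte-like cells of both embryos. Against a floor of 3 counts per library its level there was at least 14.4-fold lower than in RGC-like cells in embryo 4 and at least 8.42-fold lower in embryo 5. *Dll1* (2 and 0 UMIs) and *Mfng* (0 and 2 UMIs) were also called lower, calls lost with DESeq2 (adjusted p = 0.0907 and 0.0575). RGC markers summed to 1820 and 2123 CPM in these cells, and their part in the levels was not tested. Other pathway genes of these cells were *Heyl*, a Hey-family repressor, at 273 and 192 CPM and *Dlk1*, a non-canonical ligand, at 554 and 512 CPM.

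Endothelial-like cells were too few for a test, 12 and 8 against a minimum of 20. *Hes1* was at 665 and 308 CPM and *Notch1* at 382 and 308 CPM. *Jag1* was at 127 and 132 CPM, from 9 and 9 UMIs. *Dll4*, the endothelial Delta ligand, was at 170 and 103 CPM, from 12 and 7 UMIs. *Notch3* had 0 UMIs in these cells, in sums of 70686 and 68118 UMIs, and no bound on its level is given. *Hey1* came from 1 and 14 UMIs and is not given as a level.

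The other pathway genes followed no single direction. Of 45 genes listed, 41 were tested along the lineage, and 16 were higher and 9 lower in IPC-like than in RGC-like cells, with 8 higher and 15 lower at the second step. Of all genes 24.7% were called higher and 24.4% lower at the first step, and 25.3% and 24.4% at the second. The nuclear complex had 5 of 6 genes higher and 1 lower at the first step. *Maml3* rose from 211 and 209 to 469 and 470 CPM (1.25 ± 0.06, adjusted p = 3.6e-07), whereas *Maml2*, a coactivator of the same family, fell from 443 and 488 to 160 and 165 CPM (−1.43 ± 0.07, adjusted p = 5.3e-07). *Rbpj* itself rose by little, from 190 and 194 to 249 and 266 CPM (0.51 ± 0.07, adjusted p = 0.000341). *Rbpj*, *Adam10* and the endothelial *Dll4* are named after their values were seen. Of the 9 inhibitors and turnover genes 4 were higher and 3 lower. *Numbl*, a Numb-family inhibitor of Notch, rose from 10.6 and 11.2 to 60.0 and 58.2 CPM (2.52 ± 0.09, adjusted p = 5.9e-08), and *Dtx4*, a Deltex ubiquitin ligase, fell from 20.7 and 18 to 3.19 and 0.916 CPM (−3.11 ± 0.33, adjusted p = 5.3e-05). *Nrarp*, a feedback inhibitor that Notch induces, fell at both steps, from 54.8 and 45.4 to 32.2 and 23.9 CPM and on to 6.58 and 5.93 CPM.

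*Hes6*, which counteracts *Hes1*, peaked with the Delta ligands. It went from 58.0 and 46.5 CPM to 275 and 260 CPM and to 65.1 and 59.8 CPM, with changes of 2.44 ± 0.10 (adjusted p = 1.5e-07, edgeR) and −1.98 ± 0.10 (adjusted p = 3.8e-07). Of the other 5 ligands tested 1 was higher at the first step, *Dll4*, from 3 and 0 UMIs to 11 and 11 UMIs, and *Dner*, a neuronal ligand-like protein, rose at the second from 33.8 and 46.5 to 151 and 212 CPM (2.30 ± 0.19, adjusted p = 1.0e-05). *Dtx1*, a second Deltex ligase, rose there too, from 7.67 and 8.37 to 40.7 and 43.8 CPM (2.52 ± 0.12, adjusted p = 2.7e-07). Of the 10 genes of receptor cleavage 6 did not pass at the first step and 7 at the second, and *Adam10*, the protease of the first cut, was at 98.9 and 94.6, 106 and 117, and 101 and 102 CPM along the lineage.

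The genes most alike in pattern were found by Pearson's r of log2(CPM + 10) over 9 classes and 2 embryos (18 sums, which share libraries and cells, so that no test is given). *Hes5* was nearest to *Vit* (0.990), *Rgcc* (0.986) and *Pdpn* (0.986). *Notch1* was nearest to *Wwtr1* (0.983), *Mki67* (0.981) and *Cenpp* (0.980). *Mfng* was nearest to *Eomes* (0.967), *Bckdha* (0.925) and *Mfap4* (0.921), and *Dll1* to *Slc16a14* (0.935), *Eomes* (0.913) and *Cbfa2t2* (0.904).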

How the data were processed

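The authors deposited UMI counts per gene and barcode, not normalized, counted with Cell Ranger 7.0.0 on mm10 per the labels, while the file headers carry version 7.1.0. Whether intron reads were counted is not given in the sources used here. Cells needed 1000 detected genes and no more than 10% mitochondrial counts, and the highest Scrublet scores (947 and 1052 cells) were removed. The 9932 and 10416 cells left were clustered without the 10 members and 45 other pathway genes (2000 variable genes, 30 components, 20 neighbours, Leiden resolution 1; scanpy 1.11.5, leidenalg 0.10.2, Python 3.11.15). Clusters were named by marker lists, and 7 of 26 stayed unnamed and entered no comparison. A flagged result in 1 of these is not reported here. The cycling threshold, a mean log2 ratio of 1.5, was set after the scores were seen. Counts were summed per class and embryo and tested with edgeR 4.0.16 (R 4.3.3, TMM, filterByExpr), with a threshold of 0.05 on the Benjamini-Hochberg p. Each standard error was derived from the F statistic.

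The members, lists and tests were chosen with earlier results of these data known. All members are named, with at most 3 called genes for each other group and comparison and the 3 genes most alike for *Notch1*, *Dll1*, *Hes5* and *Mfng*. All class sums of 1 embryo are from the same animal and are therefore paired by its number. Their deviations correlated at 0.196, 0.154, 0.193, 0.0686 and 0.0454 in the 5 comparisons. Nothing says that the embryos come from separate litters. Alternatives were DESeq2 1.42.0, other scaling and filters, a replicate block, thinned cells, single-cell gates and other clusterings. *Notch1*, *Notch2*, *Notch3* and *Hey1* overlap other annotated genes, whose reads may mix. The scripts were tested on simulated data.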

Additional observations from a re-analysis of the deposited data

Results flagged for a closer look

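The cycling effect on *Jag1* differed between the progenitor classes. *Jag1* was lower in the cycling-led cluster of RGC-like cells, at 9.41 and 7.82 CPM against 14.2 and 16.3 CPM, and stood at 4.06 and 6.29 CPM against 3.07 and 2.87 CPM in IPC-like cells (8 and 13 against 20 and 16 UMIs). The interaction, a comparison added after the data were seen, was 1.51 ± 0.41 on the log2 scale (adjusted p = 0.0370, edgeR), where 11.8% of 14101 genes were called. No other member passed.

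A cluster led by *Ttr*, *Rspo2* and *Zfp804b* (152 and 142 cells) was left unnamed and enters no comparison. It held *Hes5* at a mean of 117 CPM (111 and 122), above its RGC-like level of 73.5 and 57.2 CPM, with *Hes1* at 93.2 and 102 CPM. These differences were not tested.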

How the results depend on the processing

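All 10 calls from RGC-like to IPC-like cells kept their direction and their side of the threshold under the 15 tested alternatives. From IPC-like to immature neuron-like cells the 8 lower calls did so too. *Hey1* gave 1 member called higher, against 0, with the replicate block (0.49), doublets kept (0.48), at most 5% mitochondrial counts (1.36), pathway genes in the clustering (0.79), resolution 0.5 (1.34) and, chosen after seeing the data, only clusters with a class marker among the leading genes (0.55). Its change reversed to −0.049 with gates on single cells. *Jag1* reversed to 0.15 in the clusters with a leading class marker and was called lower at resolution 0.5 (−0.63, adjusted p = 0.0444). The cause was not tested.

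For the cycling split of RGC-like cells, DESeq2 called 823 genes higher and 253 lower, the replicate block 2051 and 1285 with 2 members higher, and no filter on low counts 1007 lower with 1 member higher (*Hes1*). For IPC-like cells DESeq2 called 1279 genes lower, against 2521, and the replicate block gave 2 members higher, against 1. For pericyte-like cells DESeq2 called 3 members lower, against 5, and *Notch1* reversed to −0.025 without a filter. The replicate block changed no other member call. The test of endothelial-like cells was not run for lack of cells. Without 1 embryo a class has 1 sum and no test. With cells thinned to 1500 UMIs 45 of 60 shares moved beyond their interval. A lower depth by itself lowers the chance of finding a UMI, so these moves do not test the differences between classes. With 2 embryos, differences among low genes such as *Dll3* in radial glia rest on few UMIs.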
